A study of Mus musculus with 10 samples.

Results

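Renin cells of the left kidney were compared between mice with aortic coarctation and sham-operated mice. The comparison was defined by the sample labels and used the 5 left kidney libraries of the 10 libraries in the series, 3 from coarctation mice and 2 from sham mice. All mice were adult C57BL/6 animals, 8 to 12 weeks old, that carried the Ren1c-YFP reporter, a yellow fluorescent protein controlled by the renin promoter. In the coarctation group the aorta had been narrowed for 72 h between the origins of the renal arteries. In the sham group the animals were operated on, but the aorta was neither exposed nor narrowed. Living cells positive for the reporter were sorted from the cortex of each kidney, and 1000 of them per kidney were amplified with SMART-Seq v4 for RNA-seq. Because the sort used a reporter of the renin promoter, cells in which that promoter was silent were not selected for. Messages of other cell types were still present in the libraries, as given below. Each mouse gave 1 left and 1 right library, so the left libraries of a group came from different mice.

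Renin is an aspartyl protease that cleaves angiotensinogen to angiotensin I, the first and limiting step of the renin-angiotensin cascade. In the adult kidney it is made by juxtaglomerular cells, specialised mural cells of the afferent arteriole that store it in granules and release it when perfusion pressure falls. Renin passes through the endoplasmic reticulum, where chaperones fold secreted proteins and where the sensors IRE1, PERK and ATF6 adjust chaperone supply to the folding load. Since the right renal artery of the mouse usually arises nearer the heart than the left one, the left kidney lies beyond a narrowing placed between them. The labels state no pressures, and how the left kidneys were perfused was not measured in these data.

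The left libraries held 21774861 to 29357415 estimated counts, and log2 CPM (counts scaled to library size) of 18825 tested genes correlated at 0.895 to 0.923 between any pair of them. Between 20009 and 23840 genes had at least 1 count in the coarctation libraries, against 26699 and 22852 in sham mice 1 and 2. Both libraries of sham mouse 1 stood apart from the others on the first principal component (107 for its left kidney, where every other left library was at -3.91 or lower), and on the second component coarctation mouse 1 had the highest left value (72.5). Where leaving out 1 left library turned the direction of a list described below, the values without it are given. The defining renin cell genes Ren1, Akr1b7 and Crip1 were at 2874 to 48620 TPM (transcript abundance scaled for length and library size) in every left library. Markers of proximal tubule (25 genes, none at 0 in all left libraries) summed to 1788 to 11299 TPM in coarctation and 1363 to 6519 TPM in sham left kidneys.

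No gene passed the edgeR quasi-likelihood test at an adjusted p of 0.05 between coarctation and sham left kidneys, and the smallest adjusted p was 0.912. At an unadjusted p under 0.05 there were 346 genes higher in coarctation (1.84% of those tested) and 548 lower (2.91%). DESeq2 called 39 genes of 18665 with an adjusted p (0.209%), 24 higher and 15 lower, and limma-voom called 0. The 3 coarctation libraries lay wholly above the 2 sham libraries for 1832 genes (9.73%) and wholly below them for 2255 (12.0%) on TMM-normalized CPM. On the TPM scale the same split was 916 genes above (4.87%) and 3232 below (17.2%). The median log2 change over all tested genes was -0.02 with TMM and -0.26 on log2(TPM + 0.1), so differences on the TPM scale are to be read against that shift. Below, higher and lower refer to measured levels, none of which passed edgeR's adjusted threshold.

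Renin message was high in both groups of left kidneys and did not separate them. Ren1 (chr1:133350510-133360325 on GRCm38, plus strand, protein-coding) was at 29285, 48620 and 36877 TPM in coarctation mice 1, 2 and 3 and at 30521 and 43896 TPM in sham mice 1 and 2. The groups overlapped, with the lowest and the highest value both among the coarctation libraries. The means were 38261 ± 9741 TPM (SD, n = 3) and 37209 ± 9457 TPM (SD, n = 2), a log2 change of 0.26 (SE 0.39, edgeR adjusted p = 0.937). Leaving out 1 library at a time moved this change between -0.026 and 0.66. In the right kidneys of the same mice Ren1 was at 5450.5 to 11982 TPM in coarctation and at 21776 and 48591 TPM in sham. The left difference exceeded the right difference by 2.11 on the log2 scale (SE 0.55, adjusted p = 1; with mouse as a block 2.02, adjusted p = 0.181). In RNA from sorted cells, fewer renin cells in the sort and less message per cell cannot be told apart.

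The reporter message did not separate the groups either. EYFP was at 413, 959 and 369 TPM in coarctation mice 1, 2 and 3 and at 189 and 717 TPM in sham mice 1 and 2. The groups overlapped, and the log2 change was 0.53 (SE 0.72, edgeR adjusted p = 0.932).

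The renin cell identity genes as a list, with Ren1 and EYFP among them, showed no common direction. Of 25 genes fixed for this list, 24 were tested, 15 were higher and 9 lower in coarctation, with a median log2 change of 0.11 that turned to -0.13 on log2(TPM + 0.1). Without sham mouse 1 the tally was 7 higher and 17 lower (median -0.17), without sham mouse 2 the median was 0.40, and without coarctation mouse 2 it was -0.10. Of the 24, 2 had every coarctation library above sham (8.33%, against 9.73% of all genes) and 4 every one below (16.7%, against 12.0%). Akr1b7, an aldo-keto reductase that marks renin cells, was at 3249, 6181 and 5503 TPM in coarctation and at 2874 and 8252 TPM in sham. Crip1, a LIM-domain protein abundant in these cells, was at 12738, 22124 and 17031 TPM in coarctation and at 13544 and 17088 TPM in sham. Both overlapped between the groups, with log2 changes of 0.04 (SE 0.61) and 0.40 (SE 0.29) and adjusted p of 0.993 and 0.912 in edgeR, and the change of Akr1b7 turned to -0.021 on either TPM scale.

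Among the low members, Hoxb7, a homeobox transcription factor, was at 14.1, 27.2 and 20.9 TPM in coarctation and at 36.9 and 38.7 TPM in sham, without overlap. Adora1, the adenosine receptor through which the macula densa restrains renin release, was at 5.09, 4.70 and 4.31 TPM against 10.0 and 8.65 TPM, also without overlap. Their log2 changes were -0.64 (SE 0.36) and -0.72 (SE 0.44), and the edgeR adjusted p was 0.912 for both.

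Kiss1, which encodes the peptide kisspeptin, and Aldh7a1, an aldehyde dehydrogenase, also belong to the renin cell identity list. Both were chosen for naming after their values were seen, because they were low in the right kidneys of coarctation mice. In left kidneys Kiss1 was at 33.1, 224 and 206 TPM in coarctation and at 145 and 258 TPM in sham, and coarctation mouse 1 alone lay far below the rest. Aldh7a1 was at 324, 670 and 229 TPM in coarctation and at 281 and 514 TPM in sham, with overlap. Their left log2 changes were -0.20 (SE 0.95) and 0.23 (SE 0.47), where the right changes were -5.03 (SE 1.07) and -2.01 (SE 0.47).

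**Figure D1:**
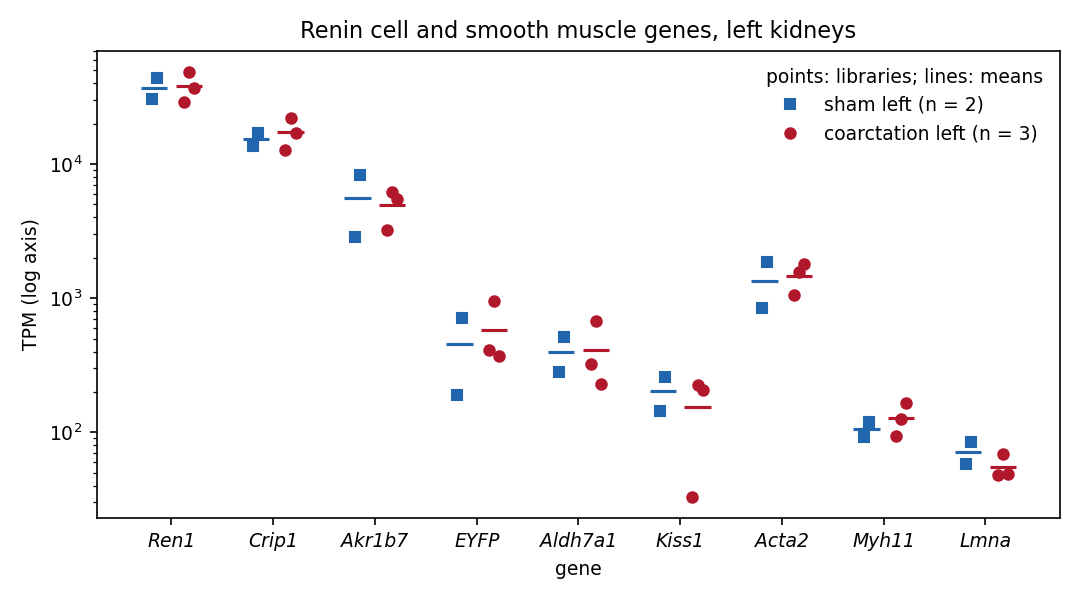
Levels of renin cell and smooth muscle genes in the left kidneys, as TPM on a log axis, with 1 point per library (3 coarctation, 2 sham) and a line at each group mean. For all 9 genes the ranges of the 2 groups overlap, and Ren1 spans 29285 to 48620 TPM over both.

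The genes that sense or relieve protein folding load in the endoplasmic reticulum were higher in coarctation left kidneys as a list. Of 29 genes fixed for the unfolded protein response, 28 were tested, 25 were higher and 3 lower, and the median log2 change was 0.63 against -0.02 for all genes. For 14 of them (50%, against 9.73% of all genes) every coarctation library lay above both sham libraries, and for 0 below (against 12.0%). At an unadjusted p under 0.05 there were 7 higher (against 1.84% of all genes) and 0 lower. On TPM, 9 were wholly above (against 4.87% of all genes) and 1 wholly below (against 17.2%), and the median was 0.35 on log2(TPM + 0.1). The median member stood 0.66, 0.36 and 0.74 log2 units above the sham mean in coarctation mice 1, 2 and 3, and at -0.16 and 0.16 in the sham mice, so each coarctation library lay above each sham library. Leaving out any single left library kept the median between 0.48 and 0.81, and it was 0.50 without both kidneys of sham mouse 1. No member passed the edgeR adjusted threshold. An earlier account of these data had pointed to these genes, so the list is no independent evidence of its direction.

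Manf (chr9:106838312-106891979 on GRCm38, minus strand, protein-coding), a small secreted protein of the endoplasmic reticulum released under folding stress, was the member with the smallest p. It was at 307, 300.2 and 344 TPM in coarctation mice 1, 2 and 3 and at 165 and 146 TPM in sham mice 1 and 2. The groups lay far apart relative to the spread within either of them. Manf was also picked by the naming rule below, which required no overlap, so this separation is no finding. The means were 317 ± 23.7 TPM (SD, n = 3) and 156 ± 13.4 TPM (SD, n = 2). On TMM-scaled counts the edgeR estimate was 2.45-fold (log2 change 1.29, SE 0.29, adjusted p = 0.912). The adjusted p was 0.0195 with DESeq2 and lay between 0.0195 and 1 over the alternatives, while the change stayed between 1.02 and 1.34.

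Sdf2l1, which binds the chaperone BiP and helps keep unfolded proteins soluble, was at 49.7, 76.7 and 56.8 TPM in coarctation and at 14.9 and 21.4 TPM in sham. No library overlapped, and the log2 change was 1.97 (SE 0.58, edgeR adjusted p = 0.912). Hsp90b1, which encodes the chaperone GRP94, was at 214, 209 and 182 TPM in coarctation and at 110 and 167 TPM in sham. Sham mouse 2 came close to the lowest coarctation library, and the log2 change was 0.79 (SE 0.32). Dnajc3, a co-chaperone that restrains PERK, was at 17.4, 24.4 and 22.5 TPM in coarctation and at 9.76 and 17.5 TPM in sham, so the groups met at coarctation mouse 1 on TPM but not on CPM (log2 change 0.88, SE 0.35).

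Other members are named here after their values were seen. Hspa5, which encodes BiP, the main chaperone of the compartment, was at 150, 224 and 245 TPM in coarctation and at 128 and 156 TPM in sham, with a log2 change of 0.78 (SE 0.32). Coarctation mouse 1 lay between the sham values of Hspa5 on TPM. Derl3, a channel component for degradation of misfolded proteins, was at low levels, at 1.84, 11.7 and 8.15 TPM against 1.25 and 0.117 TPM.

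The sensor genes and the transcription factors downstream of them took different values. Ern1, which encodes IRE1, was at 1.24, 2.23 and 2.50 TPM against 0.617 and 0.914 TPM without overlap (log2 change 1.60, SE 0.71). Eif2ak3, which encodes PERK, had a log2 change of 0.32 (SE 0.89). Atf6 was at 1.60, 2.51 and 3.09 TPM in coarctation and at 1.74 and 1.61 TPM in sham, with overlap. Xbp1, the target of IRE1 splicing, was at 24.7, 40.9 and 31.6 TPM against 13.5 and 58.4 TPM, within the sham range. Atf4, the translational target of the PERK branch, had a log2 change of -0.13 (SE 0.48), and Ddit3, which encodes the death-linked factor CHOP, one of 0.52 (SE 0.55). Gene-level values do not show splicing of Xbp1 or translation of Atf4.

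**Figure D2:**
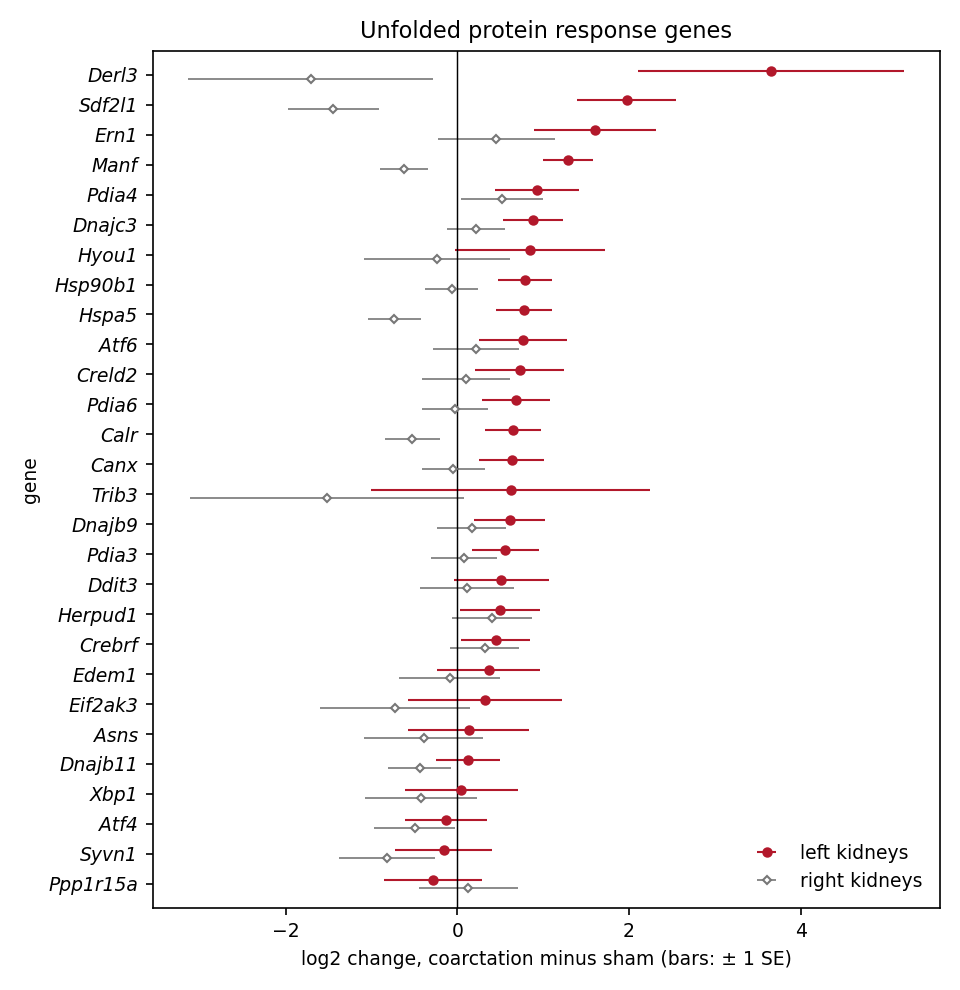
Log2 change, coarctation minus sham, of the 28 tested unfolded protein response genes in left kidneys (filled circles) and right kidneys (open diamonds), with bars of 1 SE from the edgeR model. In left kidneys 25 of 28 lie above 0, and in right kidneys 11 do.

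Promoters of this list are shown because a motif links several members to the same sensors. The endoplasmic reticulum stress element, CCAAT followed by 9 bases of any kind and CCACG, is bound by NF-Y together with ATF6. It was searched on both strands in the 250 bases upstream of the RefSeq start (GRCm38.p6). It occurred in 9 of the 26 list genes with a promoter entry (34.6%) and in 35 of all 27025 promoters (0.13%). This share uses no expression values and reflects how the list was composed, so it is no result of these data. The 9 were Calr, Canx, Creld2, Derl3, Dnajc3, Hsp90b1, Hspa5, Pdia6 and Syvn1, with the matches ending 25 to 193 bases before the start. The 4 of them with the smallest p between the left groups are printed 5′ to 3′ on the gene's strand, with the matches in capitals. A match that reads CGTGG first and ATTGG last lies in the opposite orientation, and Hsp90b1 holds 2 matches, 1 in each orientation. For Dnajc3 and Derl3 the first 20 bases after the RefSeq start were in no GENCODE vM21 transcript of the gene. Their distances hold for the RefSeq start only.

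Dnajc3 (chr14:118937682-118937931, plus strand): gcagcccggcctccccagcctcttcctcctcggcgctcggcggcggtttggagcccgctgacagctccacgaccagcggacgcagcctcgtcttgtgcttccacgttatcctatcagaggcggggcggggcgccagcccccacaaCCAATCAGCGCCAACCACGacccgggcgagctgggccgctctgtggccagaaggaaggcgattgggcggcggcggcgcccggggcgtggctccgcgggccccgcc
Hsp90b1 (chr10:86705445-86705694, minus strand): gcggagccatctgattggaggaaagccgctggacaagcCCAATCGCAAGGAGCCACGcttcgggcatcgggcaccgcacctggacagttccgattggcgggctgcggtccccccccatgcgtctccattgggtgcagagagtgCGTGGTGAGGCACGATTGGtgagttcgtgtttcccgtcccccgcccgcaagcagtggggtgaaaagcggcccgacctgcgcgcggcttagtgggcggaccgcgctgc
Hspa5 (chr2:34771840-34772089, plus strand): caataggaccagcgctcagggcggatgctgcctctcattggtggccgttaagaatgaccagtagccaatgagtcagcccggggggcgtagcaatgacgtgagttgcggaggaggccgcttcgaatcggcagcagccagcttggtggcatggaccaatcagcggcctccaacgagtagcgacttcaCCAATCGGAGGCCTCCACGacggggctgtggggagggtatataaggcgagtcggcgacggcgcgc
Derl3 (chr10:75893148-75893397, plus strand): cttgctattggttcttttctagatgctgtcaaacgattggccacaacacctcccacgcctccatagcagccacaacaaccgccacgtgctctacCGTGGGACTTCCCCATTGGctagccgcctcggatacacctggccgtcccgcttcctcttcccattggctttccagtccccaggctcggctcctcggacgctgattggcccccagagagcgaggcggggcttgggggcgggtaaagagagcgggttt

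Of the 9 genes with the element, 8 were higher in coarctation left kidneys and the same number had no overlap on CPM (against 9.73% of all genes), with a median log2 change of 0.73, against 0.63 for the whole list. The exception was Syvn1, a ubiquitin ligase of the degradation pathway, at 2.94, 2.54 and 3.39 TPM in coarctation and 4.13 and 3.88 TPM in sham. Among the 12 other tested genes whose promoter held the element, 5 were higher, 1 had no overlap above sham (against 9.73% of all genes), and the median log2 change was -0.13. The 9 genes belong to a list that was already higher as a whole, so their direction is no separate finding. The related element of type II, ATTGG and CCACG with 1 base of any kind between them, was found in 1 list gene, Herpud1 (38.0, 39.6 and 45.5 TPM against 26.5 and 42.4 TPM), and in 0.037% of all promoters. These matches are letters in a window, and binding was not measured.

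The protein translocation, signal peptide and vesicle transport genes of the secretory pathway lay in the same direction with smaller differences. Of 40 tested, 35 were higher and 5 lower in coarctation, with a median log2 change of 0.32 that was 0.09 on log2(TPM + 0.1). For 15 (37.5%, against 9.73% of all genes) every coarctation library lay above sham on CPM and for 7 on TPM (against 4.87%). None lay wholly below on either scale. The median ranged from 0.18 without sham mouse 1 to 0.64 without sham mouse 2.

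Ssr4, a subunit of the translocon-associated complex, was at 397, 489 and 413 TPM in coarctation and at 308 and 329 TPM in sham. Its partner Ssr3 was at 25.6, 29.0 and 28.2 TPM against 16.5 and 19.3 TPM. Both separated the groups on TPM and CPM, with log2 changes of 0.69 (SE 0.29) and 0.88 (SE 0.33) and an edgeR adjusted p of 0.912 each. Spcs1, a signal peptidase subunit, was at 840, 844 and 775 TPM against 644 and 670.1 TPM, again without overlap. Sar1a, the GTPase that starts export vesicles, was at 28.7, 46.3 and 39.1 TPM against 23.9 and 31.1 TPM and overlapped on TPM only.

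The cytosolic ribosomal protein genes show how far scaling enters such counts. Of 49, 48 were higher in coarctation after TMM (median log2 change 0.31) and 31 had no overlap above sham (63.3%, against 9.73% of all genes), while 4 of 49 did on TPM (against 4.87%). Their summed TPM was 26665, 30660.2 and 25754 in coarctation and 28251 and 26112 in sham, which overlapped.

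**Figure D3:**
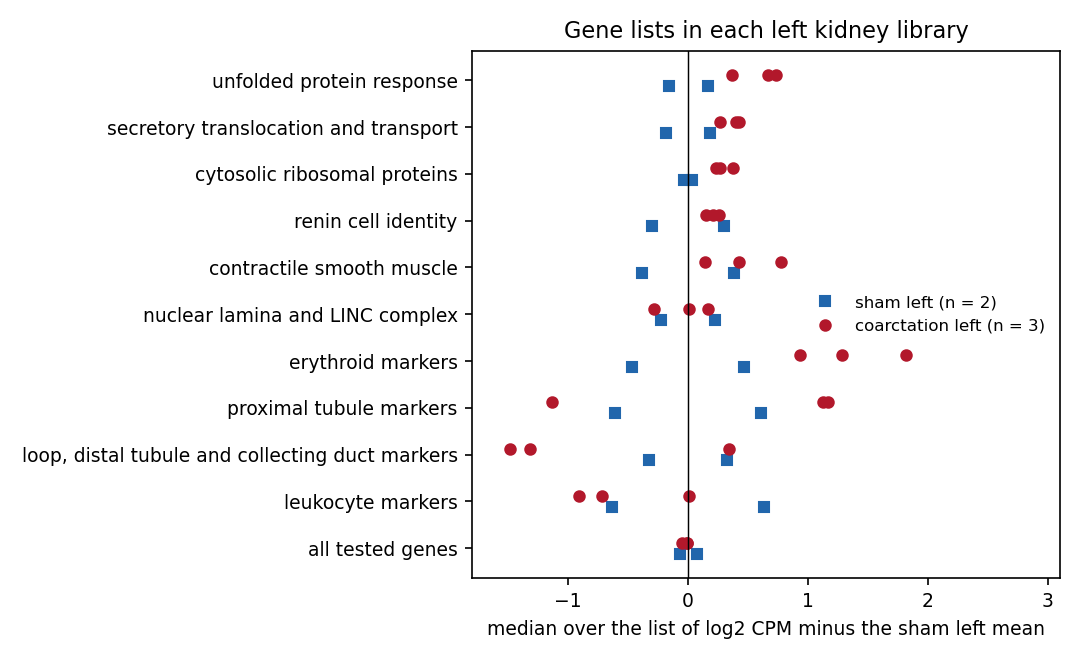
For 10 gene lists and all tested genes, the median over tested members of log2 CPM minus the mean of the sham left libraries, with 1 point for each of the 3 coarctation and 2 sham left libraries. The coarctation points of the unfolded protein response list (0.36 to 0.74) lie above both sham points (-0.16 and 0.16), whereas those of proximal tubule markers (-1.13 to 1.16) span both.

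In the right kidneys of the same mice the endoplasmic reticulum genes lay near the median of all genes. There the median log2 change of the unfolded protein response list was -0.08, and 11 of 28 genes were higher in coarctation. The left change minus the right change was positive for 27 of 28 genes (against 9268 of 18825 tested genes), with a median of 0.64. At an unadjusted p under 0.05 the difference was positive for 5 members and negative for 0 (against 1.37% and 1.68% of all genes), and positive for 8 with mouse as a block. For the secretory list the difference was positive for 35 of 40 genes, at that p for 1 (8 with mouse as a block). Among all 18825 genes, with mouse as a block, 387 positive and 395 negative differences were under that p. The test of the difference called 0 genes over all 18825 at the adjusted threshold (smallest adjusted p 0.391; with mouse as a block 0 genes, 0.181). DESeq2 called 34 genes for the difference, among them Manf and Sdf2l1.

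Manf was at 81.1, 93.9 and 113 TPM in the right kidneys of coarctation mice 1, 2 and 3 and at 168 and 156 TPM in those of sham mice 1 and 2. In every coarctation mouse its left value was above, and its right value below, each of the 4 sham kidneys. The left difference exceeded the right by 1.91 (SE 0.40, edgeR adjusted p = 1; with mouse as a block 1.91, adjusted p = 0.347). Sdf2l1 was at 9.53, 4.59 and 4.46 TPM in right coarctation kidneys and at 11.7 and 25.8 TPM in right sham kidneys, with a difference of 3.42 between the sides (SE 0.78).

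**Figure D4:**
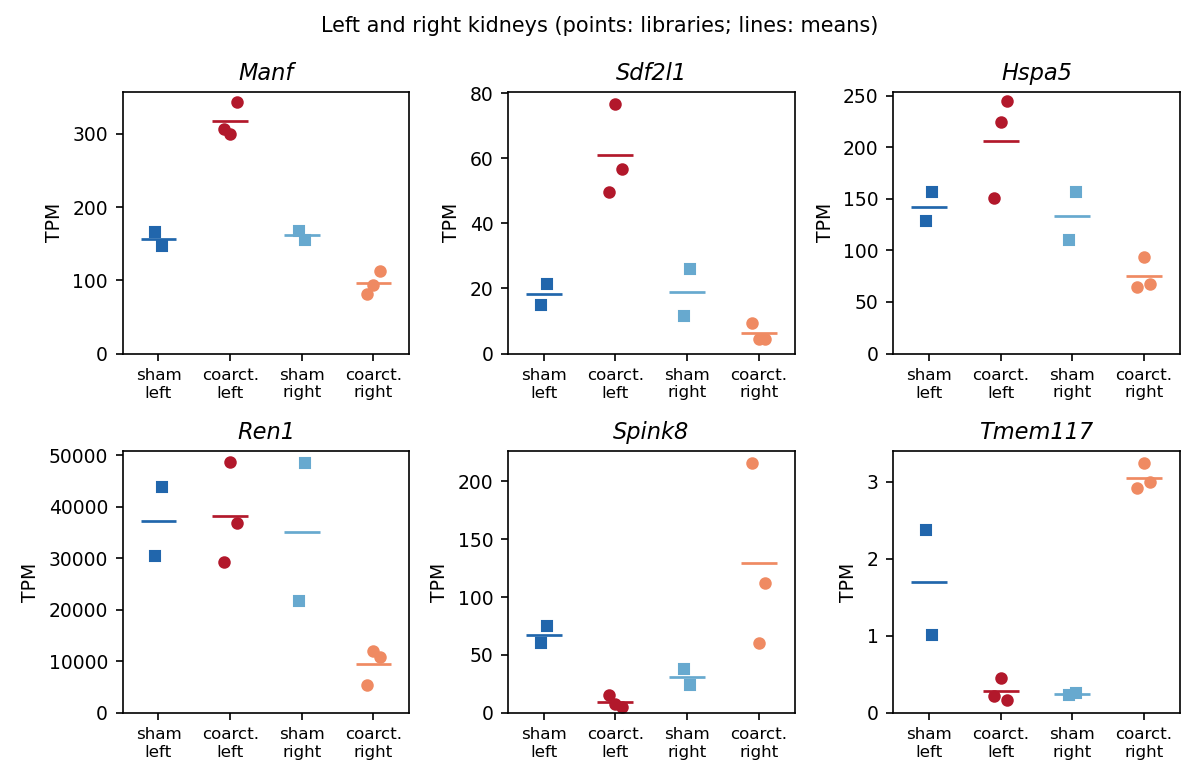
TPM of 6 genes in all 10 libraries, with 1 point per library and a line at each group mean, by operation and kidney side. Manf in coarctation lies above all 4 sham kidneys on the left and below them on the right, while Ren1 in coarctation overlaps sham on the left and lies below both sham kidneys on the right.

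Beyond the fixed lists, the naming rule took the genes of smallest p among those with enough counts and no overlap. On the higher side it took Tspan33, Manf, Ogn, Olfr1034, Abcb6, R3hcc1l, Elovl6, Haus2, Zdbf2 and Zfp612. Their fold sizes, as edgeR estimated them on TMM-scaled counts, ran from 2.45 for Manf to 19.7 for Tspan33, and the edgeR adjusted p was 0.912 for each. Since the rule required that the groups did not overlap, their separation is no finding.

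Tspan33, a tetraspanin, was at 3.66, 2.91 and 1.49 TPM in coarctation and at 0.205 and 0.119 TPM in sham. The log2 change was 4.30 (SE 0.92), and the counts behind the sham values were 13 and 9. The right sham kidneys held 0.980 and 0.386 TPM of Tspan33. Ogn, which encodes the matrix proteoglycan osteoglycin, was at 64.5, 19.7 and 86.0 TPM against 3.62 and 12.1 TPM (log2 change 3.12, SE 0.74). It also had a right change of 2.73 (SE 0.72), at 14.7 to 32.2 TPM in right coarctation kidneys and 4.11 and 3.91 TPM in right sham kidneys, so Ogn was higher in coarctation on both sides. Elovl6, the elongase of long-chain fatty acids, was at 4.09, 4.42 and 2.70 TPM against 1.07 and 0.968 TPM (log2 change 2.13, SE 0.57). Its right sham values, 2.13 and 3.68 TPM, lay above both left sham values. Abcb6, a porphyrin transporter, was at 5.26, 10.5 and 6.22 TPM against 1.72 and 1.07 TPM, but the right sham kidneys held 16.5 and 5.44 TPM. DESeq2 gave adjusted p of 3.76e-06 for Tspan33, 0.0112 for Ogn and 0.0104 for both Elovl6 and Abcb6. Over the alternatives the highest adjusted p was 1 for each of these 4 genes, and the lowest was the DESeq2 value except for Ogn (4.09e-07 without a filter on low counts).

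R3hcc1l was at 7.38, 5.44 and 9.58 TPM in left coarctation kidneys and at 2.24 and 2.20 TPM in left sham kidneys. Its right log2 change had the opposite sign (-1.46, SE 0.49, against 2.03, SE 0.53 on the left), with right sham kidneys at 15.0 and 10.0 TPM. Haus2, a subunit of the augmin complex of the mitotic spindle, was at 2.39, 4.49 and 3.30 TPM against 1.16 and 0.511 TPM. Zdbf2, an imprinted gene, was at 0.653, 1.67 and 1.26 TPM against 0.149 and 0.286 TPM. The right sham kidneys held 1.86 and 2.14 TPM of Haus2 and 3.58 and 2.14 TPM of Zdbf2. The olfactory receptor gene Olfr1034 (0.698, 0.611 and 1.79 TPM against 0.114 and 0.0623 TPM) and the zinc finger gene Zfp612 (4.02, 5.62 and 5.08 TPM against 1.75 and 1.93 TPM) complete this side, so most of these genes were at low levels. Their right sham values were 2.21 and 0.690 TPM for Olfr1034 and 8.41 and 5.16 TPM for Zfp612, above both left sham values of each gene.

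On the lower side the rule took Cbl, Tmod2, Spink8, Atp2b4, Aff4, Neb, Avl9, Tmem117, Tenm4 and Zfp141. Their log2 changes ran from -4.90 for Tmod2 to -1.30 for Aff4, again with an edgeR adjusted p of 0.912 each. Cbl, a ubiquitin ligase for activated receptor tyrosine kinases, was at 0.564, 2.06 and 1.09 TPM in coarctation and at 6.20 and 7.13 TPM in sham. Atp2b4, a plasma membrane calcium pump, was at 7.40, 13.7 and 5.66 TPM against 30.7 and 23.3 TPM. Tmod2, which caps actin filaments, was at 0.0817, 0.186 and 0.0366 TPM against 1.18 and 5.55 TPM, and Neb, which encodes the actin-binding protein nebulin, at 0.890, 1.33 and 0.867 TPM against 9.41 and 5.90 TPM. Aff4, a scaffold of the super elongation complex, was at 2.65, 4.54 and 5.02 TPM against 11.7 and 12.1 TPM. Its right sham values, 5.63 and 5.66 TPM, lay below both left sham values. Cbl, Atp2b4 and Tenm4 were also lower in right coarctation kidneys. Their right log2 changes were -1.30 (SE 0.48), -1.11 (SE 0.36) and -1.57 (SE 0.50). Tmod2 and Neb had right changes of -1.18 (SE 1.02) and -0.84 (SE 0.74). For Spink8, Aff4, Avl9, Tmem117 and Zfp141 the right change was positive.

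Spink8, a Kazal-type serine protease inhibitor, Tmem117, a membrane protein, and Avl9 took opposite directions on the sides. Spink8 was at 15.2, 7.85 and 4.58 TPM in left coarctation kidneys and at 60.1 and 74.8 TPM in left sham kidneys. In right kidneys it was at 215, 60.1 and 112 TPM in coarctation and at 38.1 and 24.2 TPM in sham. The groups did not overlap on either side, and the left change minus the right change was -4.88 (SE 0.92, edgeR adjusted p = 0.719; with mouse as a block -4.81, adjusted p = 0.257). Tmem117 was at 0.218, 0.455 and 0.167 TPM in left coarctation kidneys and at 2.38 and 1.01 TPM in left sham kidneys. In right kidneys it was at 2.91, 3.24 and 3.00 TPM in coarctation and at 0.230 and 0.250 TPM in sham, and the difference was -6.14 (SE 1.05, adjusted p = 0.391). Vtn, which encodes vitronectin and was chosen after its values were seen, had 0, 2 and 0 counts in left coarctation kidneys and 92 and 29 in left sham kidneys, and on the right 159 to 437 counts in coarctation and 14 and 11 in sham.

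Genes of the contractile apparatus, which juxtaglomerular cells share with the smooth muscle of the arteriole, were 18 higher and 6 lower of 24 tested. The median log2 change was 0.39, but it was 0.02 without sham mouse 1 and was 0.95 without sham mouse 2. For 5 genes every coarctation library lay above sham (20.8%, against 9.73% of all genes), and for 2 every one lay below (8.33%, against 12.0%). On TPM 2 lay above (against 4.87%) and 2 below (against 17.2%). Pln, which encodes phospholamban, the regulator of the calcium pump of the sarcoplasmic reticulum, was at 164, 151 and 238 TPM in coarctation and at 78.2 and 117 TPM in sham. Synpo2, an actin-binding protein of the Z-disc, was at 10.3, 16.7 and 18.3 TPM against 8.56 and 7.71 TPM. Both separated the groups on either scale, with log2 changes of 1.18 (SE 0.38) and 1.14 (SE 0.39). In right kidneys 19 of the 24 genes were higher in coarctation, with a median log2 change of 0.30. Pln and Synpo2 had right changes of 0.90 (SE 0.38) and 0.71 (SE 0.39), so this direction was not confined to left kidneys.

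The smooth muscle actin and myosin genes overlapped between the groups. Acta2, smooth muscle actin, was at 1047, 1571 and 1802 TPM in coarctation and at 843 and 1851 TPM in sham (log2 change 0.35, SE 0.46). Myh11, smooth muscle myosin, was at 94.2, 126 and 166 TPM against 92.6 and 119 TPM (log2 change 0.53, SE 0.30). Casq2, a calcium-binding protein of the sarcoplasmic reticulum, and Ppp1r14a, an inhibitor of myosin phosphatase, were the remaining members of smallest p. Casq2 was lower in coarctation, at 0.631, 0.740 and 0.0699 TPM against 6.06 and 0.979 TPM, and Ppp1r14a was at 250, 425 and 397 TPM against 195 and 278 TPM. In right kidneys Casq2 took the other direction (log2 change 3.32, SE 1.18).

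The calcium and mechanosensitive channel list, 25 genes, was split evenly, with 13 higher and 12 lower and a median log2 change of 0.01, and the median lay between -0.23 and 0.12 with 1 left library left out. Its pumps took both directions. Atp2a2, the pump that Pln regulates, was at 23.8, 28.7 and 31.4 TPM in coarctation and at 16.0 and 21.9 TPM in sham (log2 change 0.81, SE 0.33). Atp2b1, a plasma membrane calcium pump, was at 18.7, 23.7 and 21.2 TPM against 8.57 and 17.6 TPM (log2 change 0.93, SE 0.37), unlike its paralog Atp2b4 above. Cacna1d, a voltage-gated calcium channel, stayed under 1 TPM throughout, with a log2 change of -2.20 (SE 0.91).

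The nuclear lamina and LINC complex, which couples the nucleus to the cytoskeleton, showed no common direction, with 8 of 20 genes higher and a median log2 change of -0.12. Without sham mouse 2 the tally was 13 of 20 higher (median 0.43). Lmna, the gene for lamins A and C, was at 47.9, 68.6 and 48.9 TPM in coarctation and at 58.1 and 85.0 TPM in sham (log2 change -0.15, SE 0.41, edgeR adjusted p = 0.962). Sun1, a LINC protein of the inner nuclear membrane, was at 7.12, 7.07 and 7.58 TPM against 4.03 and 6.29 TPM and did not overlap. Lmf1, which encodes a lipase maturation factor of the endoplasmic reticulum and is no lamina gene although the list holds it, was at 1.60, 3.28 and 1.76 TPM against 5.54 and 5.63 TPM. The log2 changes of Sun1 and Lmf1 were 0.74 (SE 0.43) and -1.11 (SE 0.62).

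Receptors and enzymes that control renin release gave 15 genes higher and 11 lower of 26, with a median log2 change of 0.11 that was -0.09 on log2(TPM + 0.1) and -0.28 without coarctation mouse 2 (-0.02 without mouse 1). Ramp1, the partner of the receptor for the vasodilator CGRP, was at 63.7, 127 and 153 TPM in coarctation and at 59.7 and 83.4 TPM in sham (log2 change 0.91, SE 0.42). Ptgs2, the cyclooxygenase that the macula densa uses to call for renin, was at 0.137, 0.446 and 1.00 TPM against 0.0318 and 0.0759 TPM. Its counts were 18, 67 and 147 against 4 and 11, so its log2 change of 3.52 (SE 1.50) rests on few counts in the sham libraries. Cnr1, the cannabinoid receptor, was at or near 0 in all left libraries.

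Of the cyclic AMP pathway, the main stimulus to renin transcription and release, 17 genes were higher and 9 lower of 26 (median log2 change 0.09, and -0.10 on log2(TPM + 0.1)). Without sham mouse 1 the tally was 13 and 13 (median -0.05), and without coarctation mouse 2 the median was -0.006. Pde4b, a phosphodiesterase that degrades cyclic AMP and is itself a cyclic AMP target gene, was at 42.4, 63.5 and 50.5 TPM in coarctation and at 25.4 and 33.0 TPM in sham. It did not overlap, and the log2 change was 1.07 (SE 0.38, edgeR adjusted p = 0.912). In right kidneys it was at 25.03 to 33.6 TPM in coarctation and at 22.3 and 43.6 TPM in sham. Pde1c, a calcium-dependent phosphodiesterase, was at 0.0323 to 0.427 TPM against 1.27 and 0.469 TPM.

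The remaining renin-angiotensin genes were 6 higher and 8 lower of 14 tested, with a median log2 change of -0.06 that was 0.12 without sham mouse 1 and 0.17 without sham mouse 2. Agtr1a, the angiotensin II receptor that mediates feedback onto renin cells, was at 40.3, 66.4 and 55.2 TPM in coarctation and at 75.4 and 103 TPM in sham. The groups did not overlap, and the log2 change was -0.50 (SE 0.30, edgeR adjusted p = 0.912). Ctsb, which encodes the lysosomal protease cathepsin B, was at 177, 323 and 189 TPM against 134 and 219 TPM. Ace, which encodes angiotensin-converting enzyme, was below 1 TPM in every left library.

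Fatty acid synthesis and LXR target genes were 12 higher and 6 lower of 18 (median log2 change 0.12, and -0.01 on log2(TPM + 0.1)). Besides Elovl6, Abca1, the exporter of cholesterol, was at 1.15, 0.551 and 1.00 TPM against 0.526 and 0.149 TPM. Acss2, which makes cytosolic acetyl-CoA, was at 4.66, 4.32 and 5.45 TPM against 12.4 and 8.74 TPM, and Fads1, a desaturase, overlapped between the groups.

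Markers of other cell types were present at levels that varied between libraries. Markers of the loop, distal tubule and collecting duct were lower in coarctation, 22 of 27, with a median log2 change of -0.92. Coarctation mouse 1 did not share this: its median member stood 0.34 above the sham mean, above both sham libraries (0.33 and -0.33), where mice 2 and 3 were at -1.48 and -1.32. The tally was 15 of 27 lower without sham mouse 1 (median -0.63), and the median was -1.69 without coarctation mouse 1. For 7 (25.9%, against 12.0% of all genes) every coarctation library lay below sham, and their summed level was 229.5 to 566 TPM in coarctation and 492 to 934 TPM in sham. Aqp2, the water channel of the collecting duct, was at 14.3, 29.1 and 4.16 TPM against 99.7 and 82.3 TPM (log2 change -2.31, SE 0.85). Slc26a4, the pendrin exchanger of intercalated cells, was at 2.17, 0.0677 and 0.267 TPM against 7.29 and 7.33 TPM. In right kidneys the list's median log2 change was 0.79, and 22 of 27 genes had a left change below the right one.

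Erythroid markers, 7 of 8 tested, were higher in coarctation, with a median log2 change of 1.28, and 5 (62.5%, against 9.73% of all genes) had no overlap above sham. Their summed level, mostly globin, was 2103.5 to 4759 TPM in coarctation and 1246 to 2311 TPM in sham left kidneys, which overlapped. Among them Hbb-bt, a beta globin gene, was at 43.6, 89.1 and 147 TPM against 26.0 and 14.9 TPM. Proximal tubule markers were higher for 24 of 25 genes (median log2 change 0.61), but 0 of them separated the groups, and the median was 0.14 on log2(TPM + 0.1) and 0.16 to 1.38 with 1 left library left out. For that list the coarctation libraries of mice 1 and 3 stood above, and that of mouse 2 below, both sham libraries. Leukocyte markers summed to 89.0 to 678 TPM in coarctation and 170 to 505 TPM in sham, with the highest sum in coarctation mouse 2, where Lyz2 was at 228 TPM. Their median log2 change was 0.09, and it lay between -1.42 and 1.13 with 1 left library left out.

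Podocyte markers summed to 101 to 120 TPM in coarctation and 71.5 to 136 TPM in sham, and endothelial markers to 87.3 to 142 TPM and 122 to 150 TPM. Fibroblast markers summed to 158 to 383 TPM and 40.1 to 406 TPM, mostly Ly6a, and the 6 macula densa markers to 4.71 to 10.5 TPM and 2.90 to 25.1 TPM. With 1 left library left out, the median log2 change lay on both sides of 0 for podocyte (-0.33 to 0.03), endothelial (-0.48 to 1.15), fibroblast (-0.14 to 0.61) and macula densa markers (-1.43 to 0.33). No marker of these lists was at 0 TPM in all left libraries. Whether the content of other cells, globin message among it, had a part in the endoplasmic reticulum genes was not tested.

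A group of predicted genes with satellite-like sequence was lower in every left coarctation library than in every left sham library. It was found from Gm10800, which was chosen after its values were seen. Gm10800 (chr2:98666547-98667301 on GRCm38, minus strand) was at 3992, 4627 and 3353 TPM in coarctation and at 10702 and 14374 TPM in sham. The sequence is shown because the group is defined by it. Gm26870, a gene of the GENCODE vM21 annotation that is not among the tested genes, has a transcript of 1143 bases that repeats every 234 bases at 95.9% identity, the tandem pattern known from the major satellite of mouse centromeric heterochromatin. Its first repeat unit follows, with the 157 bases in capitals that lie in words of 21 bases shared with Gm10800.

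Gm26870 repeat unit: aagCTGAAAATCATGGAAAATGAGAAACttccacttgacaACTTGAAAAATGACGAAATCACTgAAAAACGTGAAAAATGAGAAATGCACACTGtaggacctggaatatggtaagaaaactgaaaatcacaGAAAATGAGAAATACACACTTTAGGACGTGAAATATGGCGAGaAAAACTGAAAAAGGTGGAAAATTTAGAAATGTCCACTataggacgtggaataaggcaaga

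Gm10800 and 11 other predicted genes shared at least 10% of their 21-base words with Gm26870 and are reported together. Their summed level was 5553, 6867 and 5060 TPM in left coarctation kidneys and 16213 and 21428 TPM in left sham kidneys. Every left coarctation sum lay far below both left sham sums. In right kidneys the sums were 14768, 7459 and 21072 TPM in coarctation and 19143 and 15802 TPM in sham, which overlapped. The 12 genes had a median log2 change of -1.60 in left kidneys, with 12 of 12 lower and without overlap on CPM (against 12.0% of all genes). Since the group was found from Gm10800, whose values had been seen, this common direction is no separate finding. They share sequence, so reads could be divided among them, and they count as 1 signal and not as 12.

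**Figure D5:**
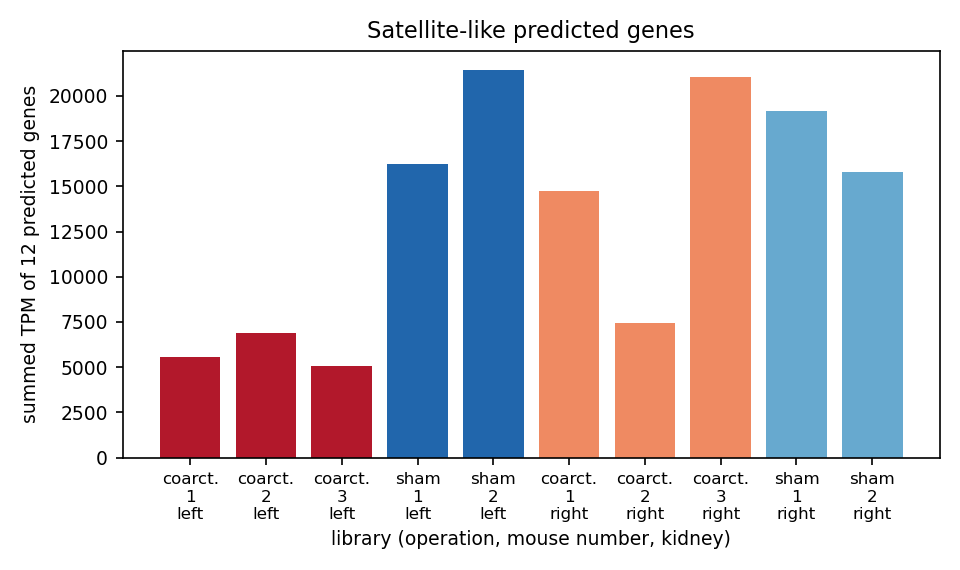
Summed TPM of the 12 predicted genes with satellite-like sequence, with 1 bar for each of the 10 libraries, colored by operation and kidney. The 3 left coarctation bars (5060 to 6867 TPM) lie below both left sham bars (16213 and 21428 TPM).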

How the data were processed

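RNA from reporter-positive cells was sequenced for 10 kidneys of 5 mice, and the 5 left kidney libraries are compared here. The design text calls the mice biological replicates. The authors deposited 1 table of 32648 genes with estimated counts (made from length-scaled TPM), TPM and mean transcript lengths (a measure named "other", in bases, not used), per the file headers. FastQC and the build GRCm38 (mm10) are named per the submitters' processing notes. Aligner and quantifier: not given in the sources used here. The labels record no molecular identifiers, so counts are not independent molecules, and precision is taken from the spread between mice.

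Deposited estimated counts were rounded and genes filtered with filterByExpr, leaving 18825 genes and removing 0.0647% of counts. TMM scaling and the quasi-likelihood test of edgeR 4.0.16 (R 4.3.3) were fitted to all 4 groups of operation and side, which share 1 estimate of the spread (common dispersion 0.45, 6 residual degrees of freedom), with Benjamini-Hochberg adjustment over all genes and a threshold of 0.05. The question for each gene was coarctation minus sham in left kidneys, and, as a second contrast, the left difference minus the right difference. DESeq2 1.42.0 and limma 3.58.1 (voom, and trend on log2 of the deposited TPM plus 1 or 0.1) were alternatives, with other filters and scalings, left kidneys alone, and each left library left out. The fits were tested on simulated data. Levels per library are given as deposited TPM. No overlap means that all 3 coarctation libraries lay on 1 side of both sham libraries.

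The left and right kidneys of a mouse are paired by the labels. Their deviations from group means correlated at 0.127, 0.0496 and 0.0307 in coarctation mice 1, 2 and 3. For the sham mice the correlation was 0.398. It is 1 value and not 2, because with 2 libraries per group the deviations of the sham mice mirror each other. Mouse was a fixed block in the left against right contrast only, since it cannot be one between mice. At most 0.566% of counts were equal between any 2 left libraries.

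Named genes were Ren1, EYFP, Akr1b7, Lmna, Acta2 and Myh11, the 10 genes of smallest p in each direction with mean log2 CPM of at least 2, no overlap and no predicted-gene name, and the 4 members of smallest p in each list described. Not every one of these list members is given here with its values. Other genes were chosen after their values were seen, Lyz2 and Syvn1 among them, and Herpud1 was named for its motif. A named gene that is withheld is not reported here. The comparison, the 36 gene lists and the tests were chosen with earlier results of these data known. Promoter sequences came from RefSeq (GRCm38.p6) and gene positions and the repeat transcript from GENCODE vM21. Python 3.11.15, pandas 2.3.3 and matplotlib 3.10.9 were used for sequences and figures.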

Additional observations from a re-analysis of the deposited data

How the results depend on the processing

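With 2 sham mice, 1 library can set a value, and depth (21774861 to 29357415 estimated counts per left library) limits the genes at low counts. The left comparison called 0 genes with edgeR, and 67 without a filter on low counts, 39 with DESeq2 and 3 on log2(TPM + 1). The left against right difference called 0, and 63 without a filter and 34 with DESeq2. Leaving out 1 left library at a time gave 0 to 0 calls in either comparison. With mouse as a random replicate block in limma-voom the left comparison also gave 0 calls (within-mouse correlation 0.317), and mouse as a fixed replicate block gave 0 for the difference. Leaving out both kidneys of sham mouse 1, or of coarctation mouse 1, alternatives added after the data were seen, gave 0 calls (smallest adjusted p 0.988 and 0.963). On either TPM scale the log2 change of Akr1b7 turned to -0.021 at both pseudocounts and that of Aldh7a1 to -0.047 (pseudocount 1) and -0.048 (0.1). With 1 left library left out, the log2 change ranged from -0.026 to 0.66 for Ren1, -0.16 to 1.92 for EYFP, -0.56 to 1.12 for Akr1b7, -0.45 to 0.26 for Lmna and -0.14 to 1.15 for Acta2. It ranged from -0.87 to 3.27 for Robo4, -2.34 to 0.33 for Eng, -0.24 to 2.45 for Pi16, -0.11 to 4.08 for Ly6a, -1.97 to 0.52 for Nos1, -0.60 to 0.39 for Kiss1 and -0.30 to 0.84 for Aldh7a1. The cause was not tested for any of these.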
